A study of Homo sapiens with 6 samples.

Results

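The genes of 9 enzymes of deoxynucleotide and pyrimidine metabolism (RRM1, RRM2, TYMS, TK1, DUT, DCK, CAD, UMPS and SAMHD1) were followed in 92.1, an established human line of uveal melanoma, which arises from melanocytes inside the eye. They were chosen by name for their place in the pathway, with earlier results of these data known, and all 9 are among the 12010 genes named in the RNA sequencing files. The study exposed 3 samples to LBH589 at 0.1 µM over 24 h. This compound, also called panobinostat, blocks histone deacetylases, enzymes that take acetyl groups off histones and other proteins. The other 3 samples of the line had DMSO, the solvent, for the same 24 h. The labels name no separate cultures, so a p-value here sets a difference against sample-to-sample spread that may be technical.

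Cells make DNA from deoxynucleoside triphosphates (dNTPs). Ribonucleotide reductase, built from a large subunit (RRM1) and a small subunit (RRM2 in dividing cells, RRM2B otherwise), makes deoxynucleotides from ribonucleotides, and thymidylate synthase, deoxyuridine triphosphatase and the salvage kinases feed the thymidine and deoxycytidine pools. CAD and UMPS build the pyrimidine ring from small precursors, and SAMHD1 works the other way, by cleaving dNTPs. In many cell types RRM2, TYMS and TK1 are known to be most abundant around S phase.

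Levels are in FPKM, a fragment count divided by transcript length and by the size of the library, and each gene's level is the sum of its listed transcripts. FPKM summed over all transcripts was 355148 to 367222 in the LBH589 libraries and 397174 to 422630 in the DMSO libraries, and mitochondrially encoded genes held 35.1 to 37.3% of it in LBH589 and 35.8 to 45.7% in DMSO. Summed FPKM of 8 melanocyte markers, all listed, was 721 to 776 in LBH589 and 2531.5 to 2672 in DMSO, and of these 8 only DCT is listed at 0 in a library (LBH589 replicate 3). Of the markers of other cells, 2 of 6 fibroblast genes (in sum 4.24 to 5.55 FPKM in LBH589 and 1.47 to 2.52 FPKM in DMSO), 0 of 4 endothelial genes, 2 of 5 immune genes (8.85 to 12.4 FPKM in LBH589 and 11.6 to 17.4 FPKM in DMSO, mostly CD68, with PTPRC, CD3E and LYZ not among the listed genes) and 1 of 4 epithelial genes (0.692 to 1.12 FPKM in LBH589 and 0.190 to 0.452 FPKM in DMSO) were listed. The melanocyte marker sum was lower in each LBH589 library than in each DMSO library, and its part in the results below was not tested. TYRP1 held most of the sum, with means of 500 FPKM in LBH589 and 1796 FPKM in DMSO. PMEL and S100B overlapped between the groups, and S100B had the higher mean in LBH589 (2.14 against 1.24 FPKM). The other markers of the list were lower in each LBH589 library than in each DMSO library.

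After LBH589, 5 of the 9 genes fell, 1 rose and 3 did not pass the test. Those that fell were both subunits of the S-phase reductase (RRM1 and RRM2), TYMS, TK1 and DUT, with mean FPKM 1.64- to 9.23-fold lower in LBH589 than in DMSO. The only rise was that of SAMHD1, which removes dNTPs. DCK, CAD and UMPS had lower means in LBH589, but their groups overlapped. The test was limma on log2(FPKM + 1) across the 11520 genes whose mean reached 0.5 FPKM, which all 9 did, and a gene was called at a Benjamini-Hochberg adjusted p below 0.05. By that rule 21.6% of all tested genes fell and 27.2% rose, or 48.8% in either direction, and the 6 calls and 5 falls among 9 genes are to be read against those shares. The 5 that fell had all LBH589 libraries below all DMSO libraries, as did 26.5% of all tested genes, and SAMHD1 had all of them above, as did 33.0%. Without LBH589 replicate 2 or 3, or without DMSO replicate 2 or 3, the falls numbered 3, since RRM1 and DUT no longer passed. In those fits 2076 to 2406 of all 11429 to 11575 tested genes fell. The median log2 fold change (LBH589 minus DMSO) of the 9 genes was -0.72, against 0.08 for all genes tested. In a bulk sample, fewer cells in S phase and less RNA per cell cannot be told apart.

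**Figure D1:**
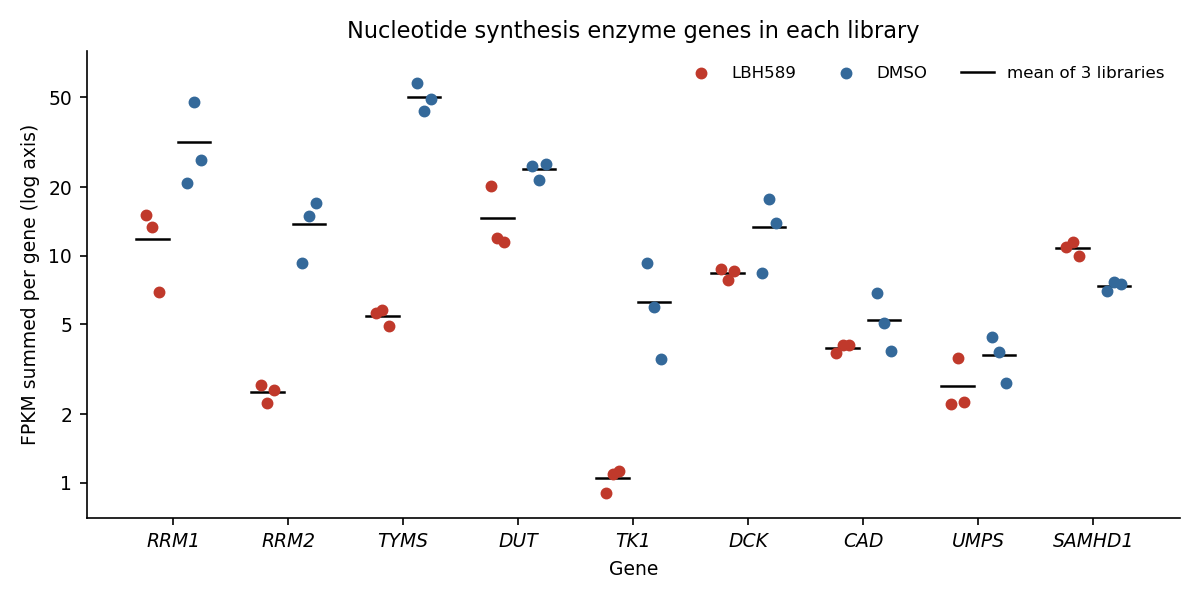
FPKM of each gene in each library on a log axis, with LBH589 libraries left of DMSO libraries and a bar at the mean of 3 libraries. The LBH589 points of RRM1, RRM2, TYMS, DUT and TK1 lie below all DMSO points, those of SAMHD1 lie above them, and those of DCK, CAD and UMPS overlap with them.

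The order of expression levels differed between the groups. In LBH589 the mean FPKM, which is per length of transcript, was highest for DUT (14.6), followed by RRM1 (11.8), SAMHD1 (10.8), DCK (8.36), TYMS (5.43), CAD (3.94), UMPS (2.68), RRM2 (2.50) and TK1 (1.04). In DMSO, TYMS was highest (50.1), followed by RRM1 (31.7), DUT (24.0), RRM2 (13.8), DCK (13.4), SAMHD1 (7.35), TK1 (6.27), CAD (5.23) and UMPS (3.65). Neighbours such as RRM2 and DCK in DMSO, or UMPS and RRM2 in LBH589, lay closer than their spread between libraries. By summed FPKM, TYMS stood above DUT in every DMSO library and below it in every LBH589 library. The most abundant DUT transcript alone was below TYMS in LBH589 replicate 3 (4.16 against 4.91 FPKM).

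Sequence upstream of the transcription start is shown for the 3 genes with the largest falls and for the 1 that rose. It comes from the RefSeq table of promoter windows (build GRCh38.p14, 250 bases before to 50 after a start, written along the gene's strand), which is a later build than the hg19 of the files, and covers the 250 bases before the start. Where RefSeq gives several starts, the one whose upstream part holds the most matches is shown. Capitals mark matches to 4 motifs searched on both strands: TTCCCGC, or in its place TTGGCGC, or else TTCGCGC (letters bound by E2F factors, which control S-phase genes), CCAAT (the box bound by NF-Y), TTTGAA (the cell cycle homology region) and CACGTG (the E-box bound by MYC and related factors). A CCAAT box on the other strand reads ATTGG and could run into TTGGCGC, but no 2 matches in these windows overlap. TYMS lies at chr18:657403-657652 (plus strand), RRM2 at chr2:10122489-10122738 (plus strand), TK1 at chr17:78187053-78187302 (minus strand) and SAMHD1 at chr20:36951709-36951958 (minus strand).
TYMS: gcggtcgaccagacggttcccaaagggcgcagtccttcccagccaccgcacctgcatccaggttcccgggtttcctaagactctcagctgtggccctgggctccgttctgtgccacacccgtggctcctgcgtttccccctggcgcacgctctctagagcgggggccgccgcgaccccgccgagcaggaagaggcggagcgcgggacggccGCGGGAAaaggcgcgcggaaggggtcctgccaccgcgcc
RRM2: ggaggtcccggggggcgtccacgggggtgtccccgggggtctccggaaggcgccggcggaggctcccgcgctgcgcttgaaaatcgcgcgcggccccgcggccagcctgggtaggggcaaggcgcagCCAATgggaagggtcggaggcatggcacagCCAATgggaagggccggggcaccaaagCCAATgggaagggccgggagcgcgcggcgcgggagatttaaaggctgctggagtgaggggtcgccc
TK1: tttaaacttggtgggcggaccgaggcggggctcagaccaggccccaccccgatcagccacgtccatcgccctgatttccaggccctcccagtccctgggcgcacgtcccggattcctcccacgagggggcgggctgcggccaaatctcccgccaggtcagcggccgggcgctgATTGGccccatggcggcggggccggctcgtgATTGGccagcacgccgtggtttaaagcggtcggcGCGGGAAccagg
SAMHD1: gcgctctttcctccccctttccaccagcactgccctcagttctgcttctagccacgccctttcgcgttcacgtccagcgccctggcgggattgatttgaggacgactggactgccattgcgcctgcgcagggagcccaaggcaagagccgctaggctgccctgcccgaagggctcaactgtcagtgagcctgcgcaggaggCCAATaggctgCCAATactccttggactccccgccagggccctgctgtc

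The TYMS stretch holds 1 E2F match, 39 bases before the start, and none of the other motifs. TK1 holds an E2F match 12 bases before the start and CCAAT boxes 77 and 46 bases before it. RRM2 holds 3 CCAAT boxes, the nearer ones 93 and 66 bases before the start, and no E2F match in the stretch shown. Its E2F match lies in the window of another start, 192 bases before that start. SAMHD1, which rose, holds 2 CCAAT boxes, 49 and 38 bases before the start, and no E2F match. Over the whole windows of 300 bases, 6 of the 9 genes (RRM1, RRM2, TYMS, DUT, TK1 and DCK) had an E2F match in at least 1 window, against 22.4% of the 9210 tested genes that have a window. The 9 genes have 14 windows, of which 6 held an E2F match, against 11.0% of all 35116 windows in the table. A CCAAT box was found for 5 of the 9 genes, against 44.1% of tested genes, the cell cycle homology region for 3 (13.8%) and the E-box for 1, DCK (12.9%). These matches describe letters in a window only, and DCK, with 3 E2F matches, did not pass the test of expression.

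Both subunits of the S-phase ribonucleotide reductase fell. RRM2, the small subunit that carries the tyrosyl radical, was at 2.70, 2.24 and 2.57 FPKM in the LBH589 libraries, against 9.25, 15.0 and 17.0 FPKM in the DMSO libraries. The LBH589 values lie close together and all below the lowest DMSO value. The log2 fold change was -2.04 (SE 0.23, adjusted p = 7.85e-04, n = 3 each, limma), and the mean was 5.49-fold lower in LBH589. RRM1, the large subunit with the active site, was at 15.1, 13.4 and 6.90 FPKM in LBH589, against 20.9, 47.8 and 26.3 FPKM in DMSO. The groups do not overlap, but both are spread widely, with 1 low LBH589 library and 1 high DMSO library. The log2 fold change of RRM1 was -1.33 (SE 0.39, adjusted p = 0.0311), and the gene no longer passed when LBH589 replicate 2 or 3 was left out (adjusted p = 0.0594 and 0.0793), nor when DMSO replicate 2 or 3 was (0.0705 and 0.0591).

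RRM2B, the small subunit used outside S phase and induced by p53, moved in the other direction. It is not 1 of the 9 genes but completes the enzyme. Its values were 15.9, 16.0 and 17.2 FPKM in LBH589, against 8.49, 8.79 and 10.2 FPKM in DMSO, with no overlap (log2 fold change 0.78, SE 0.11, adjusted p = 0.00178). The ratio of RRM2 to RRM2B within a library was 0.170, 0.140 and 0.149 in LBH589 and 1.09, 1.70 and 1.67 in DMSO. By summed FPKM, RRM2 was therefore the higher small subunit gene in each DMSO library and the lower one in each LBH589 library. This comparison does not depend on how libraries were scaled, but its order in DMSO rests on summing 4 RRM2 transcripts. The RRM2 transcript with the highest mean, ENST00000304567.9_1, was at 2.38, 6.31 and 7.90 FPKM in DMSO. The main RRM2B transcript, ENST00000251810.7_1, was above it in each DMSO library, at 8.01, 8.24 and 9.89 FPKM. The difference of the log2 ratio of the sums was -3.26 (two-sided exact permutation test, p = 0.1, and no smaller p is possible with 3 libraries a group). The ratio of RRM2 to RRM1 was 0.178, 0.168 and 0.373 in LBH589 and 0.442, 0.313 and 0.646 in DMSO. These groups overlap (log2 difference -1.002, exact permutation p = 0.2), so that a fall of RRM2 beyond that of RRM1 was not shown.

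**Figure D2:**
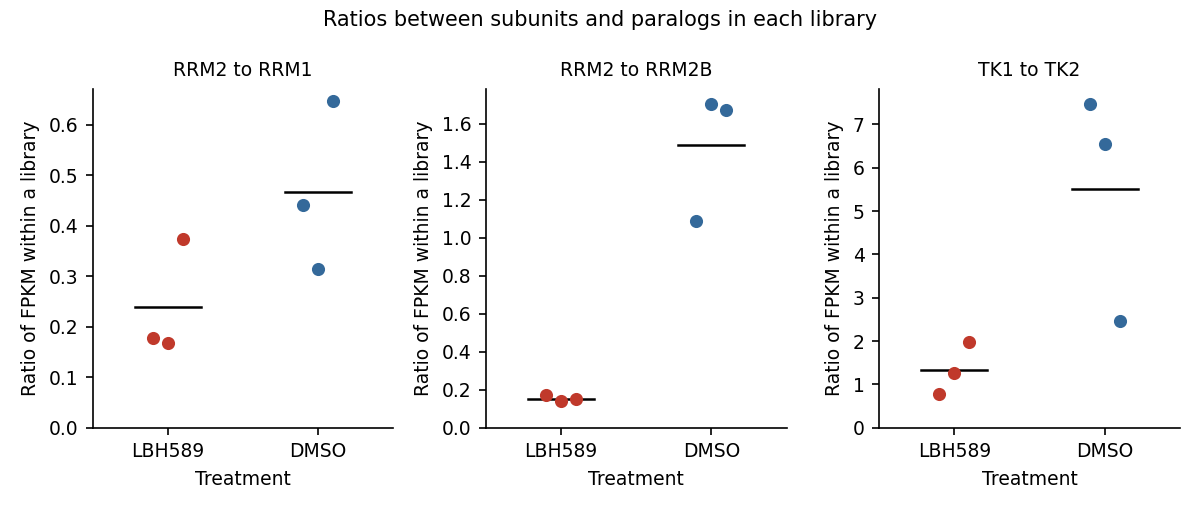
Ratio of FPKM of RRM2 to RRM1, RRM2 to RRM2B and TK1 to TK2 within each library (linear axes from 0), with a bar at the mean of 3 libraries. The RRM2 to RRM2B ratio is 0.140 to 0.170 in LBH589 and 1.09 to 1.70 in DMSO, while the RRM2 to RRM1 ratio overlaps between the groups.

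Of the 9 genes, TYMS had the lowest log2 fold change. TYMS, which methylates dUMP to thymidylate, was at 5.61, 5.77 and 4.91 FPKM in LBH589, against 57.7, 43.5 and 49.2 FPKM in DMSO. No LBH589 value reaches 6 FPKM and no DMSO value is below 43 FPKM. Its log2 fold change of -2.98 (SE 0.13, adjusted p = 3.50e-05) is lower than that of all but 0.703% of the tested genes, and the 95% interval ran from -3.31 to -2.66. In GENCODE release 29 the gene overlaps ENOSF1 on the other strand, and the sources used here do not say whether counting used strand, so fragments of the shared end may be credited to either gene. ENOSF1 was at 3.75 ± 0.184 FPKM in LBH589 and 4.11 ± 0.428 FPKM in DMSO (SD, n = 3 each) and did not pass (log2 fold change -0.10, adjusted p = 0.533). Its level is far below that of TYMS in DMSO but close to the 5.43 FPKM of TYMS in LBH589, so fragments credited to the wrong gene would weigh more in LBH589, which was not tested.

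DUT, the phosphatase that turns dUTP into dUMP, the substrate of thymidylate synthase, was at 20.3, 12.01 and 11.5 FPKM in LBH589, against 25.0, 21.6 and 25.4 FPKM in DMSO. All LBH589 values lie below all DMSO values, with LBH589 replicate 1 close to them and the other LBH589 libraries further below. The log2 fold change was -0.72 (SE 0.22, adjusted p = 0.0388). The call ended when library sums were made equal (adjusted p = 0.0851), without LBH589 replicate 2 or 3 (0.116 and 0.114) and without DMSO replicate 1, 2 or 3 (0.0933, 0.0662 and 0.0966).

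Of the salvage kinases, TK1 fell and DCK did not pass. TK1, the cytosolic thymidine kinase, was at 0.905, 1.097 and 1.13 FPKM in LBH589, against 9.33, 5.95 and 3.52 FPKM in DMSO. The LBH589 libraries lie close together, and the DMSO libraries are spread widely but all above them. The log2 fold change was -1.75 (SE 0.30, adjusted p = 0.00425), on a scale that understates changes at this level, and the mean was 6.01-fold lower in LBH589. TK2, its mitochondrial counterpart, was at 0.867 ± 0.2999 FPKM in LBH589 and 1.19 ± 0.264 FPKM in DMSO (SD, n = 3 each) and did not pass (log2 fold change -0.24, adjusted p = 0.299). The ratio of TK1 to TK2 was 0.774, 1.27 and 1.98 in LBH589 and 7.48, 6.56 and 2.47 in DMSO, with no overlap (exact permutation p = 0.1).

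DCK, the kinase of deoxycytidine and of several nucleoside drugs, was at 8.72, 7.79 and 8.57 FPKM in LBH589, against 8.43, 17.8 and 13.9 FPKM in DMSO. DMSO replicate 1 falls among the LBH589 values and the other DMSO libraries lie above them. The log2 fold change was -0.57 (95% interval -1.19 to 0.06, adjusted p = 0.117), and without DMSO replicate 1 it passed at -0.84 (adjusted p = 0.00642).

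**Figure D3:**
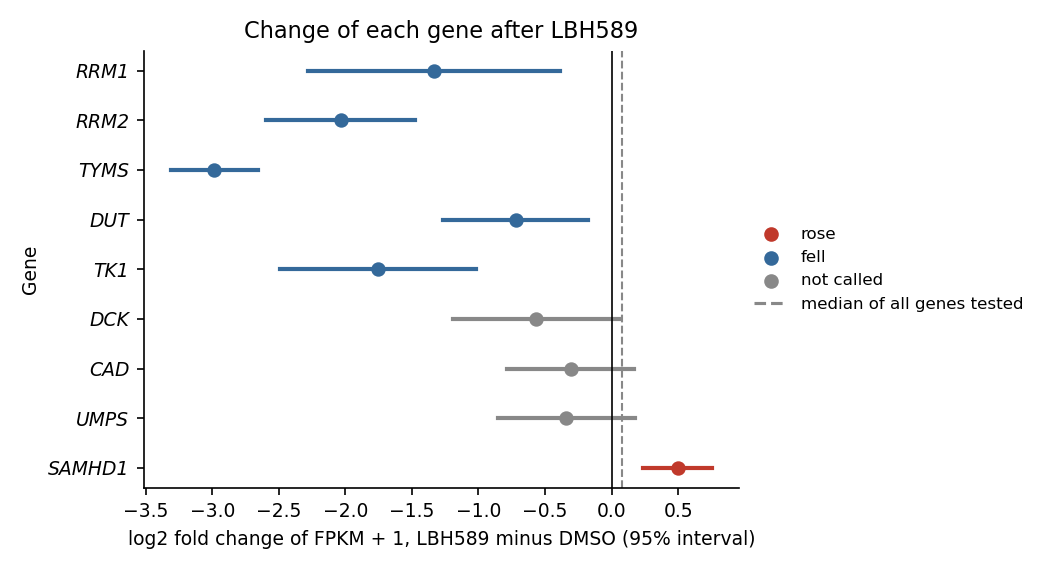
Log2 fold change of FPKM + 1, LBH589 minus DMSO, with its 95% interval from limma, for each gene, and a dashed line at the median of all genes tested (0.08). The interval of TYMS lies lowest, at -3.31 to -2.66, and only that of SAMHD1 lies above 0.

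The genes of de novo pyrimidine synthesis among the 9 showed the smallest differences. CAD, which carries out the opening steps of the pathway, was at 3.72, 4.04 and 4.06 FPKM in LBH589, against 6.82, 5.04 and 3.82 FPKM in DMSO. UMPS, which completes UMP, was at 2.23, 3.53 and 2.28 FPKM in LBH589, against 4.40, 3.78 and 2.76 FPKM in DMSO. In both genes 1 DMSO library lies within the range of the LBH589 libraries. The log2 fold changes were -0.31 for CAD (95% interval -0.78 to 0.17, adjusted p = 0.244) and -0.34 for UMPS (-0.85 to 0.17, adjusted p = 0.231). These intervals reach from a fall of the size of that of DUT to a small rise, so neither a fall of that size nor the lack of one was shown.

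SAMHD1, a triphosphohydrolase that lowers dNTP levels and is known for restricting viruses in non-dividing cells, was at 10.9, 11.5 and 10.0 FPKM in LBH589, against 6.96, 7.63 and 7.47 FPKM in DMSO. All LBH589 values lie above all DMSO values, and both groups are narrow. The log2 fold change was 0.50 (SE 0.11, 95% interval 0.24 to 0.75, adjusted p = 0.00969). The call was kept under all 18 alternatives tried, with log2 fold changes between 0.46 and 0.70. Among these, the most abundant transcript leaves its values unchanged, since SAMHD1 has 1 listed transcript. A rise of this size is common here: 69.3% of the tested genes had a lower log2 fold change.

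The listed transcripts show where the gene sums rest on several estimates. CAD, UMPS and SAMHD1 have 1 listed transcript each (ENST00000264705.8_1, ENST00000232607.6_2 and ENST00000262878.4_1). TYMS rests mainly on ENST00000323274.14_1, which holds 82.1 to 96.9% of it in DMSO, at 5.43 ± 0.459 FPKM in LBH589 and 46.3 ± 10.2 FPKM in DMSO (SD, n = 3 each), and its other listed transcripts are listed at 0 in each LBH589 library. RRM2 has 4 listed transcripts, of which LBH589 replicate 2 has only ENST00000474701.1_1 above 0 (2.24 FPKM), while in the other LBH589 libraries ENST00000304567.9_1 is the highest (1.91 and 1.74 FPKM). The RRM1 transcript ENST00000534285.5_2 is likewise listed at 0 in LBH589 replicate 2 and at 8.98 and 3.68 FPKM in the other LBH589 libraries. The DUT transcript ENST00000331200.7_1 was at 0.852, 3.18 and 0.868 FPKM in LBH589 and at 17.9, 9.55 and 0 FPKM in DMSO, so its DMSO values differ more among themselves than the gene sum does between groups.

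With the most abundant transcript of each gene in place of the sum, the calls of RRM1, RRM2, TK1 and DUT ended (adjusted p = 0.12, 0.0894, 0.0679 and 0.96) and those of TYMS and SAMHD1 were kept. RRM1, RRM2 and TK1 then had log2 fold changes of -1.25, -1.59 and -1.35, and DUT had -0.06.

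**Figure D4:**
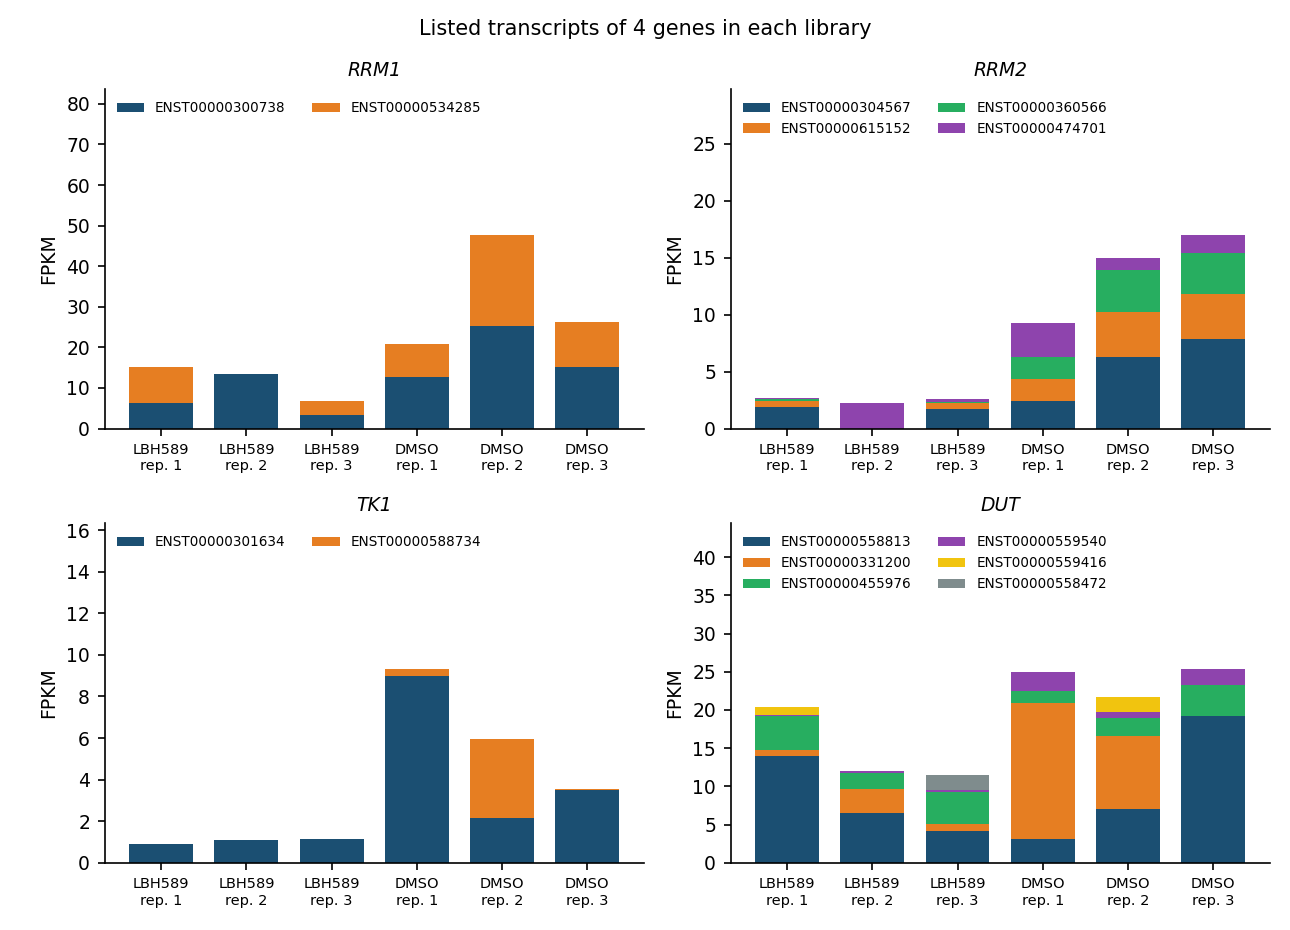
FPKM of the listed transcripts of RRM1, RRM2, TK1 and DUT stacked in each library, LBH589 libraries left of DMSO libraries, each colour a transcript (linear axes from 0). The stacks are lower in LBH589, while their makeup differs between libraries of the same group, as for RRM2 in LBH589, where ENST00000474701.1_1 holds 3.93, 100 and 8.81% of the gene, and for DUT in DMSO, where ENST00000331200.7_1 holds 71.7, 44.1 and 0% of it.

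The rest of nucleotide metabolism was covered by 55 more genes, of which 50 are listed and 49 were tested. Of these, 28 fell and 3 rose, with a median log2 fold change of -0.67, where 21.6% of all tested genes fell, 27.2% rose and the median was 0.08. The counts of the smaller lists that follow are to be read against the same shares. In the thymidylate, dUTP and folate group, 4 of 8 further genes fell and 1 rose. DTYMK, the next kinase after thymidylate synthase, fell to 2.66 ± 0.286 FPKM in LBH589, against 8.45 ± 2.93 FPKM in DMSO (log2 fold change -1.33, adjusted p = 0.00414), and MTHFD2, a mitochondrial folate enzyme, rose to 28.7 ± 1.56 FPKM, against 19.96 ± 1.33 FPKM in DMSO.

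Beyond CAD and UMPS, 5 of 6 genes of pyrimidine synthesis fell and 0 rose. CTPS2, 1 of the enzymes that make CTP from UTP, fell to 2.50 ± 0.174 FPKM in LBH589, against 10.5 ± 0.780 FPKM in DMSO (adjusted p = 1.15e-04), and CMPK1, which phosphorylates UMP and CMP, fell to 17.5 ± 1.76 FPKM, against 46.0 ± 6.03 FPKM in DMSO. The steps after UMP therefore fell by test while CAD and UMPS themselves did not pass, a difference between genes that was not itself tested. The CTPS2 call ended with the most abundant transcript (adjusted p = 0.051). Of 6 further salvage kinases, 1 fell, UCK2, a uridine and cytidine kinase, at 8.44 ± 1.19 FPKM in LBH589 and 28.7 ± 12.015 FPKM in DMSO (log2 fold change -1.56, adjusted p = 0.0112), or -0.82 with the most abundant transcript.

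Of 16 genes of purine synthesis and salvage, 10 fell and 0 rose, beside 21.6% and 27.2% of all tested genes. PAICS, a bifunctional enzyme of the purine pathway, fell to 25.6 ± 2.68 FPKM in LBH589, against 69.7 ± 4.77 FPKM in DMSO, and ADSS, which starts AMP synthesis from IMP, fell to 19.6 ± 1.09 FPKM, against 48.3 ± 2.03 FPKM in DMSO. Among 10 further genes of nucleotide hydrolysis and breakdown, 7 fell and 1 rose, beside the same 21.6% and 27.2%. NUDT1, which removes oxidized purine nucleotides, fell to 4.60 ± 1.01 FPKM in LBH589, against 12.5 ± 3.34 FPKM in DMSO (log2 fold change -1.25, or -0.77 with the most abundant transcript). ITPA, which removes inosine triphosphate, fell to 2.12 ± 0.481 FPKM, against 5.58 ± 2.10 FPKM in DMSO, a call that ended without LBH589 replicate 3 (adjusted p = 0.0557).

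DPYD, the enzyme that starts the breakdown of uracil and thymine and inactivates fluorouracil, was at 3.79, 3.57 and 4.21 FPKM in LBH589, against 0.0896, 0.114 and 0.0211 FPKM in DMSO (log2 fold change 2.17, SE 0.12, adjusted p = 5.75e-05). It passed the filter on low values only through its LBH589 level, and the size of its log2 fold change depends on the pseudocount and scale, at 4.54 with a pseudocount of 0.1 and 3.31 with sums of 1000000. SLC29A1, a membrane carrier of nucleosides, fell to 3.41 ± 0.374 FPKM, against 11.5 ± 2.12 FPKM in DMSO (SD, n = 3 each, adjusted p = 5.78e-04).

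**Figure D5:**
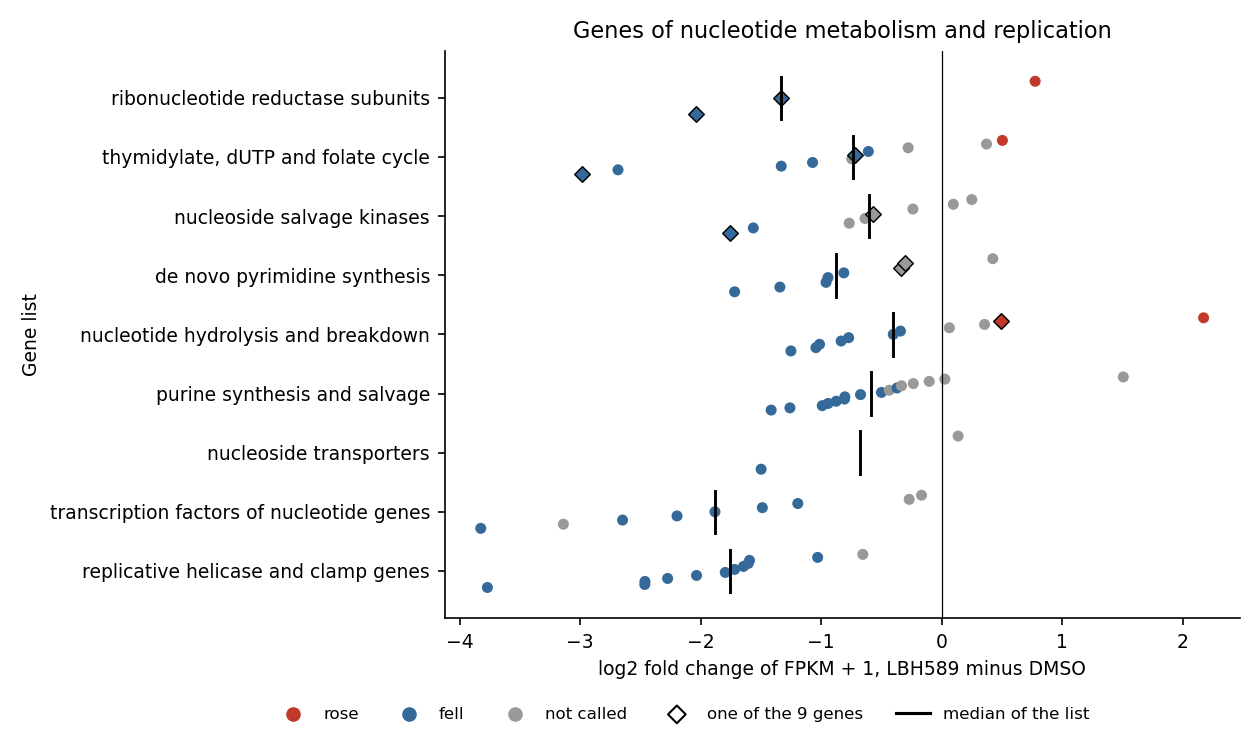
Log2 fold change of each tested gene of 9 lists, LBH589 minus DMSO, coloured by the call at adjusted p below 0.05, with diamonds for the 9 genes and a black bar at each list's median. The medians of all lists lie below 0, and the replication genes and transcription factors at the bottom reach the lowest values.

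Genes of the replication machinery were set beside the 9 enzyme genes. Of 12 replicative helicase and clamp genes, 11 fell and 0 rose, beside 21.6% and 27.2% of all tested genes, with a median log2 fold change of -1.76, and the difference from the median of the 9 genes was not tested. CDC45, which joins the helicase to start replication, fell to 0.279 ± 0.174 FPKM in LBH589, against 16.6 ± 3.86 FPKM in DMSO, and passed the filter on low values only through its DMSO level. MCM4, a subunit of the helicase ring, fell to 9.60 ± 0.720 FPKM in LBH589, against 57.5 ± 5.43 FPKM in DMSO. Of 9 transcription factors tied to nucleotide genes, 6 fell and 0 rose (median -1.88). MYBL2, a factor of the late cell cycle, fell to 1.73 ± 0.409 FPKM in LBH589, against 37.7 ± 6.87 FPKM in DMSO, and E2F3, an activator of S-phase genes, fell to 4.22 ± 1.81 FPKM, against 30.2 ± 2.09 FPKM in DMSO (SD, n = 3 each). MKI67, a marker of cycling cells, was at 0.694 ± 0.0355 FPKM in LBH589 and 13.45 ± 2.55 FPKM in DMSO, lower in each LBH589 library than in each DMSO library, and its part in the falls of the enzyme genes was not tested.

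The mean profile of the 9 genes over the 6 libraries was compared with 6860 other tested genes whose mean reached 5 FPKM, by Euclidean distance of centred log2(FPKM + 1). The closest were TXN (distance 0.103), NAE1 (0.134), PIR (0.1365), THOC7 (0.174) and WDR1 (0.181), with log2 fold changes of -1.09 to -1.01. The mean profile averages genes whose own log2 fold changes ran from -2.98 to 0.50. Closeness to it therefore does not show closeness to any single enzyme gene. TXN was at 95.04, 92.8 and 83.1 FPKM in LBH589, against 175, 203 and 183 FPKM in DMSO.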

How the data were processed

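RNA of 3 LBH589 and 3 DMSO samples was extracted with Trizol, and a TruSeq RNA kit was used for the libraries, per the labels' protocols. The authors deposited FPKM for each transcript in each library, as the file headers name it. The submitters' processing notes name Bowtie 0.12.2 and hg19 with no roles. Which tool and annotation gave FPKM, and whether strand was used, is not given in the sources used here.

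Transcript identifiers were matched to GENCODE release 29 without their version suffix, which named 30504 of 30624 transcripts (99.6%), and FPKM was summed per gene. A sum adds values divided by different lengths. The higher group mean of a listed transcript was never under 0.500 FPKM. Low values times length showed evenly spaced steps in the DMSO libraries (13 to 25 values in the fullest window of 1% width). The LBH589 libraries showed none (6 values), so depth is unknown and no counting interval is given. The low values of the 2 groups thus differ in form along with treatment. The part of this in differences between low values was not tested. No pair of libraries shared more than 1 equal value above 0. A gene at 0 is described as listed at 0.

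The 11520 genes whose mean reached 0.5 FPKM were tested by limma 3.58.1 in R 4.3.3 (statmod 1.5.0) on log2(FPKM + 1), with treatment alone in the model, a trend and robust moderation, adjusted by Benjamini-Hochberg over all of them. Ratios within a library were compared by exact two-sided permutation tests (scipy 1.17.1). Named genes are the 9 members and, among the other genes of each nucleotide list, the 2 largest called rises and falls, plus RRM2B, ENOSF1, MKI67 and the 5 genes with the closest profiles. TK2 is named for its ratio to TK1, and MOB1B for its overlap with DCK. A gene that the rule also names is not reported here. The members and lists were chosen with earlier results of these data known. Alternatives were a pseudocount of 0.1, no filter, a filter at 5 FPKM, equal sums, equal medians, quantile normalization, sums of 1000000, plain limma, adjusted p below 0.01, a replicate block, the most abundant transcript and leaving out each library. Equal sums without mitochondrial genes was added after seeing the data. No protein sequence table was used here.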

Additional observations from a re-analysis of the deposited data

How the results depend on the processing

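TYMS and SAMHD1 kept their direction and call under all 18 alternatives, with log2 fold changes of -3.18 to -2.82 and 0.46 to 0.70. RRM2 and TK1 lost their calls only with the most abundant transcript, a setting that cannot change the values of SAMHD1. The count of fallen enzyme genes, 5 of 9, became 3 at adjusted p below 0.01 and 1 with the most abundant transcript, and lay between 3 and 5 when 1 library was left out, where fewer samples enter. The count of 28 other nucleotide genes that fell became 17 of 49 at adjusted p below 0.01. At that threshold 1664 of all 11520 tested genes fell, and 2056 to 2406 fell when 1 library was left out. With the most abundant transcript, 21 of those 49 genes fell, beside 1753 of all 11457 tested genes. The 1 of 9 enzyme genes in that setting is therefore not above the share of all genes. Of all genes, 1844 of 6866 rose when only those with a mean of at least 5 FPKM were tested, against 3132 of 11520. These counts differ mainly because fewer genes were tested. With library sums made equal, all genes had a median log2 fold change of 0.23 and the 9 genes one of -0.55. There, 4 of the 9 fell, beside 2001 of all 11535 tested genes. No result reversed. With the most abundant transcript, the log2 ratio of RRM2 to another gene has no value in LBH589 replicate 2, where that of RRM2 is listed at 0.

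Samples of the 2 groups share replicate numbers. Deviations of same-numbered samples from their group means correlated at -0.10, 0.02 and -0.04, and no sample correlated best with its own number. With 3 samples a group, these values show no pairing but cannot exclude one. With a replicate block, 5 of the 9 genes fell and 1 rose, and 24 other nucleotide genes fell and 4 rose. Over all genes the block gave 2172 falls and 2617 rises. With unknown depth, the precision of low values such as those of TK1 in LBH589 can be judged only from the 3 libraries.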

Other observations

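MYC, singled out after its values were seen, was at 1.86, 2.84 and 14.8 FPKM in LBH589, against 184, 3.47 and 143 FPKM in DMSO, and did not pass the test (log2 fold change -3.14, SE 1.53, adjusted p = 0.141). Among the DMSO libraries, replicate 2, with the low MYC value, was highest for RRM1, DCK and SAMHD1, in the middle for RRM2, TK1, CAD and UMPS, and lowest for TYMS and DUT. PNP, a purine nucleoside phosphorylase also singled out afterwards, was at 18.8, 19.6 and 31.9 FPKM in LBH589 and at 6.43, 3.02 and 18.6 FPKM in DMSO (log2 fold change 1.51, adjusted p = 0.0745), a difference between groups that do not overlap but did not pass. The 2 listed transcripts of ENOSF1 moved apart: ENST00000383578.7_1 was at 3.03 ± 0.310 FPKM in LBH589 and 1.69 ± 0.512 FPKM in DMSO, and ENST00000251101.11_1 at 0.719 ± 0.249 FPKM in LBH589 and 2.42 ± 0.102 FPKM in DMSO (SD, n = 3 each, not tested).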
